A study of Sus scrofa with 10 samples.

Results

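The SLC25 genes encode the mitochondrial carriers, and 42 of them were followed in pig liver (Sus scrofa) through liver failure after hepatectomy and its treatment with a bioartificial liver. Members were the rows of the deposited expression table whose gene symbol was SLC25A followed by a number, 42 of 31905 rows. Of these, 38 reached 1 FPKM in at least 2 libraries and were tested within the 12180 genes that did so. The other 4 were SLC25A2, SLC25A41 and SLC25A53, which stayed at or under 1.22, 2.09 and 0.301 FPKM, and SLC25A31, which was listed at 0 in every library. FPKM divides a gene's fragments by its length and by the number of fragments sequenced, so levels of different genes could be set side by side on this scale.

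Mitochondrial carriers are small proteins of a common fold that mostly sit in the inner mitochondrial membrane and exchange a nucleotide, metabolite, ion or cofactor between the cytosol and the matrix. In liver they let ATP out and phosphate in for oxidative phosphorylation, move ornithine for the urea cycle, pass reducing equivalents through the malate-aspartate shuttle, export citrate for lipid synthesis and admit acylcarnitines for fatty acid oxidation. They are made in the cytosol and reach the membrane through the outer membrane translocase, small chaperones of the intermembrane space and the TIM22 translocase.

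The groups were normal liver on day 0 (Control, 3 libraries), liver in failure without a device on day 2 (NoBAL, 2 libraries), failing liver connected to a cell-free device, sampled on day 3 (EmptyBAL, 2 libraries), and liver treated with a device holding human induced hepatocytes (cells turned into hepatocyte-like cells from another human cell type) on day 4 (hiHepD4, 1 library) and day 8 (hiHepD8, 2 libraries). All animals were labelled wild type, and the labels give no age. The study set NoBAL against normal liver to find genes of liver failure, asked which of them the cell-filled device turned back, and used the empty device as the control for blood passing outside the body. Each group was sampled on its own day, so day and treatment cannot be told apart.

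The libraries of a group were not equally alike. Measured on FPKM + 1, no tested member differed 2-fold between any pair of Control libraries or between the hiHepD8 libraries. On that measure 3 of 38 did between the NoBAL libraries, against 9.05% of all tested genes. Between the EmptyBAL libraries 16 of 38 did, against 19.8% of all tested genes. The added 1 hides wider ratios of low genes, such as SLC25A35 at 0.679 and 0.152 FPKM in Control replicates 1 and 2. EmptyBAL replicate 1 stood apart. Its hepatocyte transcription factor HNF4A was at 3.15 FPKM, against 46.5 in EmptyBAL replicate 2 and 84.6 to 121 in all other libraries. The label gives the cell type as hepatocyte and the source as liver. All 10 hepatocyte markers examined were present. Their summed level was 81310 to 83687 FPKM in Control, with NoBAL at 23604 and 15110, EmptyBAL at 3825 and 7656, hiHepD4 at 40889 and hiHepD8 at 27275 and 27162. ALB made up most of the sum in Control, at 52275 to 55098 FPKM, and the markers did not all move with it. In hiHepD8 against Control 1 was called higher and 3 lower. TAT, chosen after its values were seen, was at 238 to 250 FPKM in Control and 3236 and 3203 in hiHepD8. In liver RNA, fewer cells of a type and less RNA per cell cannot be told apart. Neutrophil transcripts, summed over 6 genes, were at 1.73 to 2.91 FPKM in Control and 36.0 to 647 in NoBAL and EmptyBAL. They were at 108 in hiHepD4 and at 3.76 and 3.82 in hiHepD8. Most of the neutrophil sum in NoBAL, EmptyBAL and hiHepD4 came from S100A8, S100A12 and LCN2. Cell-cycle transcripts, summed over 8 genes, were at 11.4 to 12.7 FPKM in Control and 251 to 523 in NoBAL and EmptyBAL. They were at 184 in hiHepD4 and at 8.76 and 8.24 in hiHepD8. The part of both sets in the results below was not tested.

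The family as a whole was dominated by a few genes. SLC25A47, the ADP/ATP carriers SLC25A6 and SLC25A4, the phosphate carrier SLC25A3, the citrate carrier SLC25A1 and the glutathione carrier SLC25A39 were the 6 most abundant members of every Control library. The summed level of the 42 genes was 3181, 3255 and 3156 FPKM in Control, with NoBAL at 4694 and 3833, EmptyBAL at 1487 and 2355, hiHepD4 at 3713 and hiHepD8 at 2644 and 2650. The NoBAL libraries were the highest and the EmptyBAL libraries the lowest, with no overlap with Control on either side. The summed FPKM of all genes also differed between libraries. As a percent of it, the members held 0.383, 0.395 and 0.381 in Control, with NoBAL at 0.593 and 0.728. On that measure EmptyBAL, at 0.3 and 0.535, lay on both sides of Control. There hiHepD4 (0.456) and hiHepD8 (0.468 and 0.484) lay above Control. The composition of the summed level of the 42 genes differed too. SLC25A47 held 27.1% to 28.2% of it in Control, with NoBAL at 16.5% and 8.51%, EmptyBAL at 1.11% and 3.59%, hiHepD4 at 34.4% and hiHepD8 at 0.417% and 0.336%. The ADP/ATP carriers and SLC25A3 together held 44.4% to 45.6% in Control, with NoBAL at 60% and 63.8%, EmptyBAL at 73.4% and 74.4%, hiHepD4 at 43.3% and hiHepD8 at 73.7% and 73.6%. The latter share was thus high in both EmptyBAL and hiHepD8, while hiHepD4 lay just below Control.

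**Figure D1:**
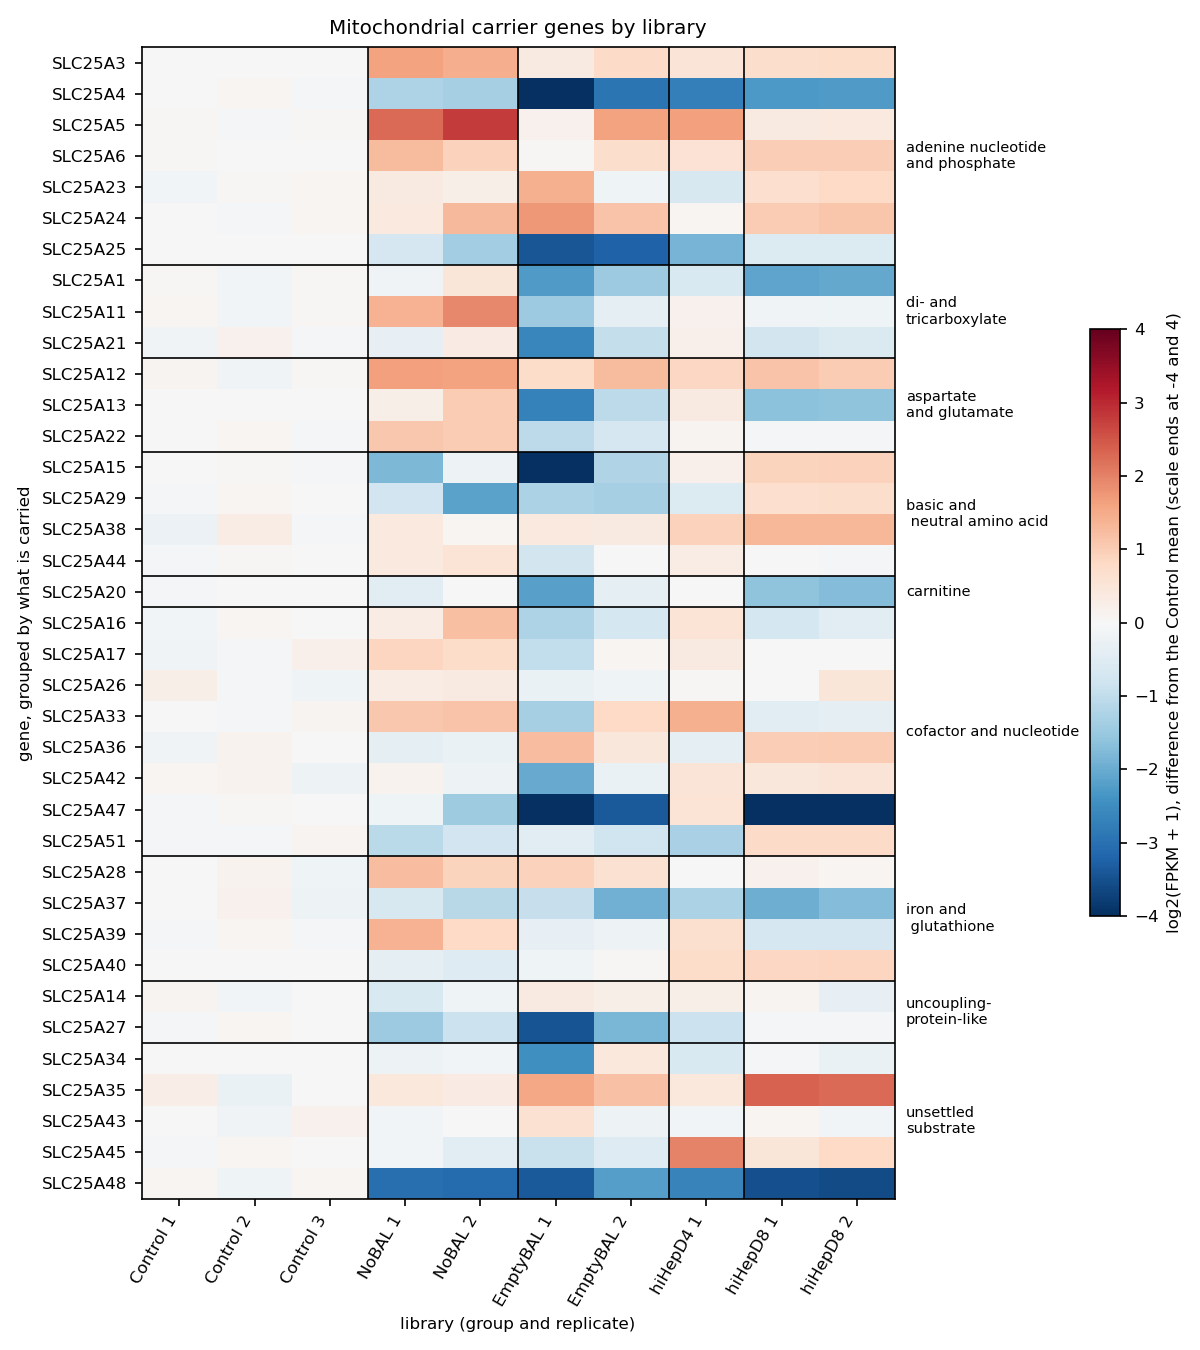
Of the 38 tested mitochondrial carrier genes, 37 (rows, grouped by what they carry) are shown in each of the 10 libraries (columns). Colour gives log2(FPKM + 1) minus the Control mean, red above and blue below, with the scale ending at -4 and 4. SLC25A47 is deep blue in the EmptyBAL and hiHepD8 columns but not in hiHepD4, and EmptyBAL replicate 1 is bluer than replicate 2 for most carriers.

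Changes between groups were measured as differences of mean log2(FPKM + 1), here called log2 changes, and tested with limma across all 12180 genes. A gene was called when its p, adjusted after Benjamini and Hochberg within a comparison, was under 0.05. In NoBAL against Control, 17 of 38 members were called, 10 higher and 7 lower (44.7%), against 49.4% of all tested genes (25.2% higher, 24.2% lower), so the share lay near the background. In EmptyBAL against Control, 24 members were called (63.2%), 7 higher and 17 lower, against 53.7% of all genes (24.4% higher, 29.3% lower). In EmptyBAL against NoBAL, 19 were called (50%), 3 higher and 16 lower, against 34.0% (12.6% higher, 21.4% lower). With only the NoBAL and EmptyBAL libraries in the fit, limma called 0 members there and 0 of all genes. Of the members, 15 had an unadjusted p under 0.05.

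For hiHepD8, 20 members were called against NoBAL (52.6%), 7 higher and 13 lower, beside 47.3% of all genes (22.5% higher, 24.8% lower). Against EmptyBAL 14 were called (36.8%), 12 higher and 2 lower, beside 40.2% (22.6% higher, 17.6% lower). Against Control 19 were called (50%), 10 higher and 9 lower, beside 32.2% (15.1% higher, 17.1% lower). The median log2 change of the 38 members was 0.20 in NoBAL and -0.54 in EmptyBAL against Control, and -0.03 in hiHepD8 against Control, beside medians of 0.04, -0.03 and -0.02 over all tested genes.

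These counts lean on the Control and hiHepD8 libraries, which were closest to each other. Whether libraries of 1 group stem from different animals is not said in the labels, and the p-values therefore cover only a spread between libraries that may be technical. With the Control libraries averaged into 1 and the hiHepD8 libraries into 1, the counts of called members in the 6 comparisons, in the order above, were 0, 1, 0, 0, 0 and 0, and at an unadjusted p under 0.05 they were 4, 8, 15, 14, 8 and 7. Of the 113 calls over the 6 comparisons, 69 held when each single library was left out in turn and 44 were lost without at least 1 library. Without EmptyBAL replicate 2 the count of hiHepD8 against EmptyBAL was 25, and it was 7 and 8 without hiHepD8 replicate 1 or 2. That of hiHepD8 against NoBAL was 31 without either EmptyBAL library. That of hiHepD8 against Control was 11 without any 1 Control library, beside 21.5% to 21.7% of all genes, and was lower still without either hiHepD8 library. In each of these fits the share of all tested genes called moved the same way as the count of members.

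The balance of higher and lower calls also depended on scale. Rescaling each library to the same total without the mitochondrially encoded genes and albumin moved the median of all genes by 0.29 in NoBAL, 0.59 in EmptyBAL and 0.41 in hiHepD8 against Control. The members called then split into 11 higher and 3 lower, 13 higher and 7 lower, and 12 higher and 5 lower. On the same scale the split was 4 and 9 in EmptyBAL against NoBAL, 8 and 9 in hiHepD8 against NoBAL, and 9 and 4 in hiHepD8 against EmptyBAL. Upper-quartile scaling gave 9 higher and 13 lower in EmptyBAL against Control and 4 and 9 in EmptyBAL against NoBAL. No named member's called change turned in sign under these scalings, and where the rescaling ended a call given below, this is said there.

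**Figure D2:**
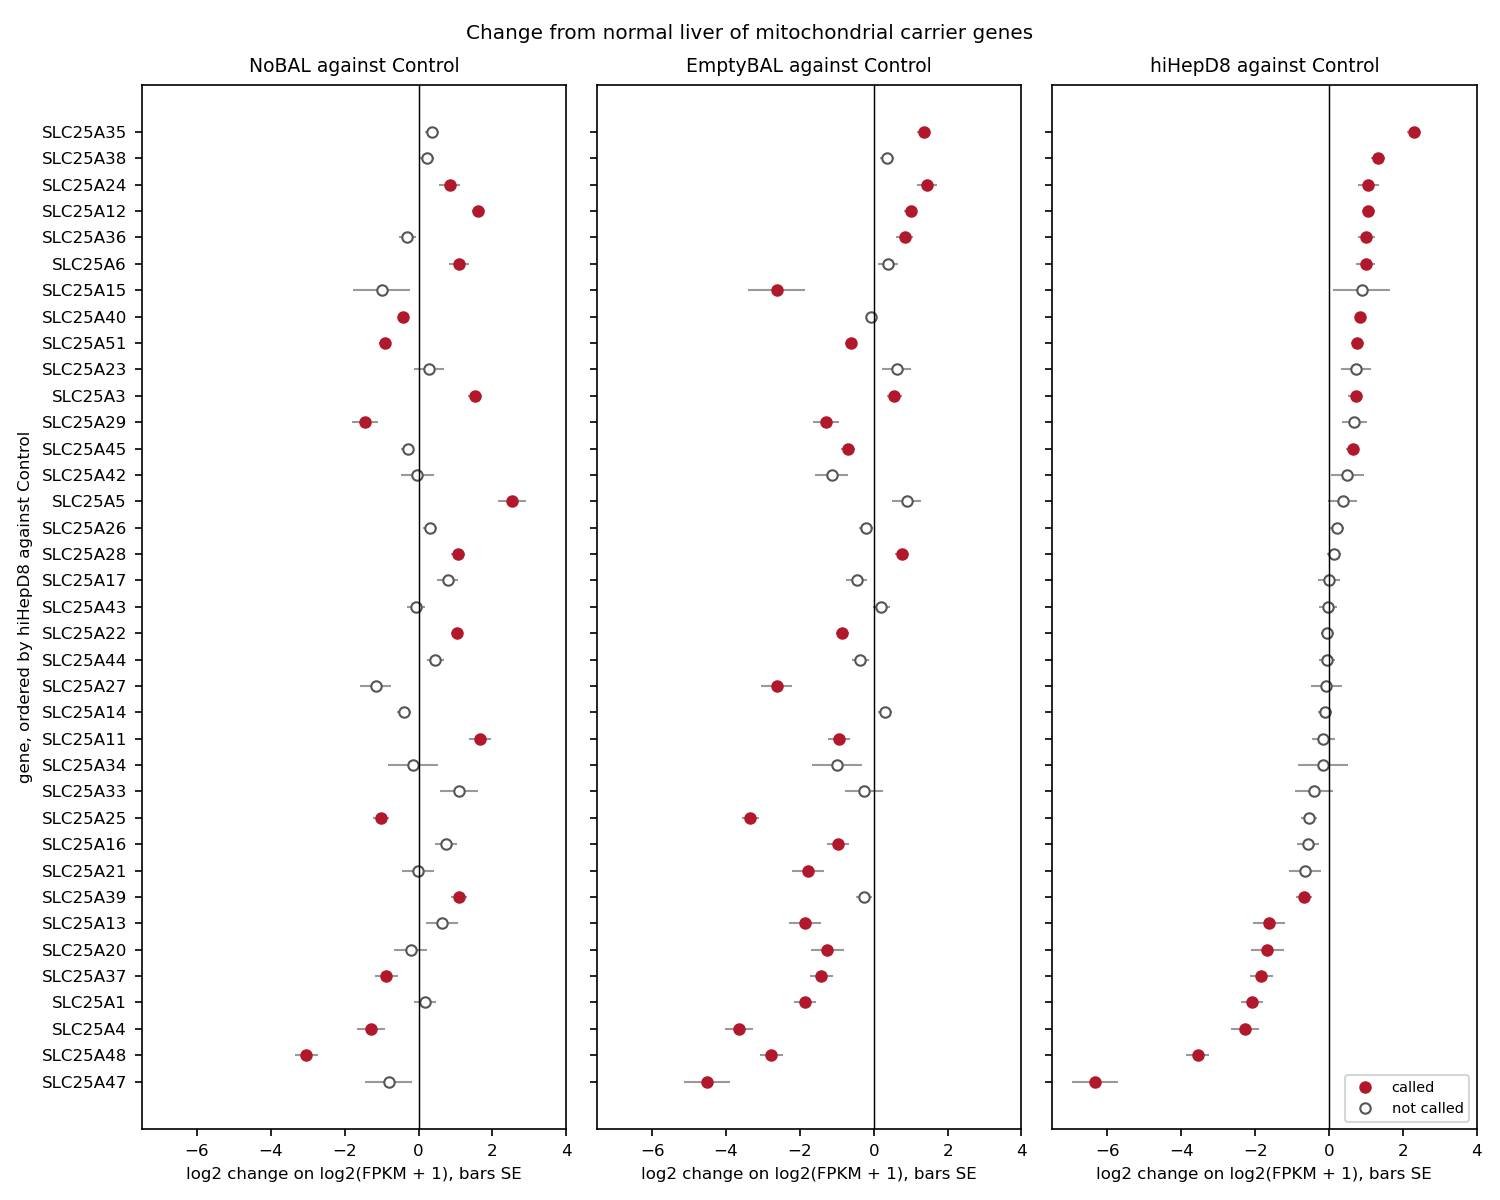
Log2 change of 37 of the 38 tested carriers from normal liver in NoBAL, EmptyBAL and hiHepD8, with limma standard errors as bars; filled red points were called and open points were not. SLC25A47 lies at -0.81 in NoBAL, uncalled, at -4.51 in EmptyBAL and at -6.34 in hiHepD8, while SLC25A5 lies at 2.53 in NoBAL and at 0.37, uncalled, in hiHepD8.

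The ADP/ATP carriers exchange matrix ATP for cytosolic ADP, and they changed their composition in failing liver. SLC25A4, the form typical of heart and muscle, stood at 448, 482 and 435 FPKM in Control, with NoBAL at 192 and 179, EmptyBAL at 20.7 and 59.7, hiHepD4 at 67.4 and hiHepD8 at 91.6 and 93.6. Every library after hepatectomy lay below every Control library. SLC25A4 fell by 3.65 (SE 0.38) in EmptyBAL (adjusted p = 0.0002) and by 2.28 (SE 0.38) in hiHepD8 (adjusted p = 0.0033). All 5 muscle markers found were under 1 FPKM in every library. In NoBAL its change was -1.29 (SE 0.38, adjusted p = 0.025), a call that was lost without any 1 Control or NoBAL library (adjusted p 0.06 to 0.096) and on the rescaled values.

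SLC25A5, the form typical of dividing cells, moved the other way at first. Its level was 53.1, 48.7 and 52.8 FPKM in Control, with NoBAL at 252 and 363, EmptyBAL at 57.7 and 160, hiHepD4 at 162 and hiHepD8 at 65.8 and 67.5. Both NoBAL libraries were above all others, and the hiHepD8 libraries were just above Control. SLC25A5 rose by 2.53 (SE 0.39, adjusted p = 0.0014) in NoBAL against Control and fell by 2.17 (SE 0.43, adjusted p = 0.0048) in hiHepD8 against NoBAL. The summed cell-cycle transcripts given above were also highest in NoBAL and above Control in EmptyBAL and hiHepD4, while those of hiHepD8 lay below Control. Their part in the level of SLC25A5 was not tested.

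SLC25A6 was the most abundant ADP/ATP carrier throughout, at 768, 734 and 745 FPKM in Control, with NoBAL at 1819 and 1410, EmptyBAL at 781 and 1224, hiHepD4 at 1119 and hiHepD8 at 1494 and 1486. All libraries after hepatectomy exceeded all Control libraries, EmptyBAL replicate 1 only just. It rose by 1.10 (SE 0.27, adjusted p = 0.012) in NoBAL and by 0.99 (SE 0.27, adjusted p = 0.027) in hiHepD8 against Control. The latter call was lost without any 1 Control library (adjusted p 0.087 to 0.093) or either hiHepD8 library (0.16).

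As a share of the 3 carriers together, SLC25A4 held 35.3%, 38.1% and 35.3% in Control, with NoBAL at 8.47% and 9.17%, EmptyBAL at 2.4% and 4.14%, hiHepD4 at 5.0% and hiHepD8 at 5.55% and 5.69%. SLC25A6 correspondingly held 58.0% to 60.5% in Control and 90.5% and 90.2% in hiHepD8. The share of SLC25A4 was thus low in every library after hepatectomy, and that of SLC25A6 was high on day 8, when SLC25A5 held 3.98% and 4.1%, beside 3.85% to 4.28% in Control. The 3 genes are close paralogs, and no source used here says how reads that fit more than 1 of them were assigned, which makes these shares uncertain.

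**Figure D3:**
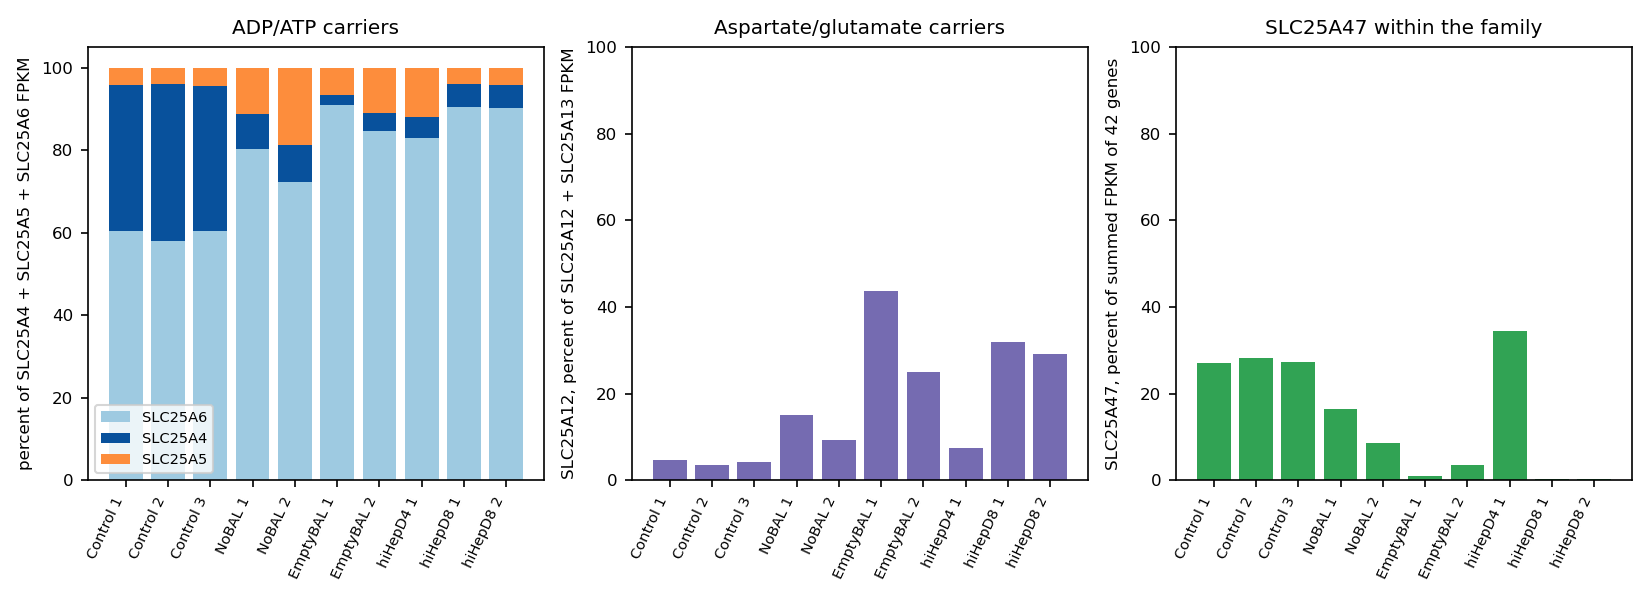
Left, stacked shares of SLC25A6, SLC25A4 and SLC25A5 in their summed FPKM per library; centre, SLC25A12 as a percent of SLC25A12 and SLC25A13; right, SLC25A47 as a percent of all 42 carriers. SLC25A4 holds 35.3% or more in the 3 Control libraries and under 10% in the 7 others, and SLC25A12 is highest in EmptyBAL (43.6% and 25%) and hiHepD8 (31.9% and 29.1%).

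SLC25A3, which brings in the phosphate used by ATP synthase, was at 181 FPKM in each Control library, with NoBAL at 554 and 494, EmptyBAL at 232 and 309, hiHepD4 at 260 and hiHepD8 at 296 and 303. It was higher than Control in all 7 other libraries and highest in NoBAL. The rise in NoBAL was 1.53 (SE 0.20, adjusted p = 0.00065). The changes against Control in EmptyBAL, 0.56 (adjusted p = 0.047), and in hiHepD8, 0.72 (adjusted p = 0.029), were both lost without any 1 Control library (adjusted p 0.12 to 0.13 and 0.095 to 0.099). The former was also lost without EmptyBAL replicate 2 (0.066) or either hiHepD8 library (0.096), and the latter without either hiHepD8 library (0.16 and 0.18).

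The calcium-regulated ATP-Mg/phosphate carriers adjust the adenine nucleotide content of the matrix, and SLC25A25 was the most abundant in all libraries but EmptyBAL replicate 1, where SLC25A23 was higher. It was measured at 114, 118 and 116 FPKM in Control, with NoBAL at 72.3 and 44.1, EmptyBAL at 9.80 and 11.3, hiHepD4 at 31.3 and hiHepD8 at 79.9 and 79.0. The order Control, hiHepD8, NoBAL, hiHepD4, EmptyBAL held without overlap. SLC25A25 fell by 3.34 (SE 0.22, adjusted p = 2.8e-05) in EmptyBAL against Control, the one call that held under all 19 alternative settings, and rose by 2.80 (SE 0.24, adjusted p = 0.0002) in hiHepD8 against EmptyBAL. EmptyBAL replicate 1, which stood apart for many genes, lay next to replicate 2 here. In NoBAL it fell by 1.02 (SE 0.22, adjusted p = 0.0064), and the change was -0.67 without NoBAL replicate 2. The change of -0.54 in hiHepD8 against Control was not called (adjusted p = 0.1), though it was with only these 2 groups in the fit (adjusted p = 2.3e-05) and without either NoBAL library (0.014). SLC25A24 was low in Control (0.631 to 0.791 FPKM) and rose by 1.44 (SE 0.28, adjusted p = 0.0035) in EmptyBAL, to 4.63 and 2.76 FPKM. SLC25A23 ranged from 2.21 to 12.5 FPKM and was called in no comparison.

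SLC25A1 exports citrate, from which cytosolic acetyl-CoA for fatty acid and sterol synthesis is made. Its level was 157, 141 and 158 FPKM in Control, with NoBAL at 139 and 214, EmptyBAL at 30.6 and 55.2, hiHepD4 at 99.4 and hiHepD8 at 34.1 and 36.2. The NoBAL libraries overlapped Control, and the EmptyBAL and hiHepD8 libraries lay far below both. SLC25A1 fell by 1.86 (SE 0.29, adjusted p = 0.0012) in EmptyBAL and by 2.08 (SE 0.29, adjusted p = 0.0014) in hiHepD8 against Control. These 2 groups shared the low level: their difference was -0.22 (adjusted p = 0.6), which does not show that they are alike.

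SLC25A11, the oxoglutarate/malate carrier of the malate-aspartate shuttle, was high in failure without a device and near the Control level on day 8. It was at 4.88, 4.16 and 4.75 FPKM in Control, with NoBAL at 13.8 and 20.3, EmptyBAL at 1.02 and 3.23, hiHepD4 at 5.28 and hiHepD8 at 4.09 and 3.97. Only the NoBAL libraries exceeded 6 FPKM. It rose by 1.67 (SE 0.30, adjusted p = 0.0029) in NoBAL against Control, and fell by 2.60 (SE 0.33, adjusted p = 0.0029) in EmptyBAL and by 1.82 (SE 0.33, adjusted p = 0.0033) in hiHepD8 against NoBAL. SLC25A21, the oxodicarboxylate carrier, was 4.55 to 5.86 FPKM in Control, 0 and 2.16 in EmptyBAL and 2.68 and 3.08 in hiHepD8. Its change of -1.78 in EmptyBAL (SE 0.44, adjusted p = 0.011) was -0.95 without EmptyBAL replicate 1, and the call was lost on the rescaled values.

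The aspartate/glutamate carriers drive the malate-aspartate shuttle and supply aspartate to the urea cycle, and the balance of their 2 forms shifted. SLC25A13, or citrin, the liver form, was at 27.1, 27.3 and 27.9 FPKM in Control, with NoBAL at 32.6 and 56.3, EmptyBAL at 3.39 and 12.9, hiHepD4 at 35.5 and hiHepD8 at 8.10 and 8.27. SLC25A12, or aralar, the form of muscle and brain, was at 1.37, 0.977 and 1.25 FPKM in Control, with NoBAL at 5.77 and 5.74, EmptyBAL at 2.63 and 4.30, hiHepD4 at 2.91 and hiHepD8 at 3.80 and 3.40. Citrin was thus low in EmptyBAL and hiHepD8, whereas aralar was above Control in every other library.

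Citrin fell by 1.86 (SE 0.44, adjusted p = 0.0092) in EmptyBAL against Control (-1.03 without EmptyBAL replicate 1), and fell by 2.26 (SE 0.49, adjusted p = 0.007) in hiHepD8 against NoBAL. Against Control its change in hiHepD8 was -1.63 (SE 0.44, adjusted p = 0.027), lost without any 1 Control library (0.071 to 0.074), without either hiHepD8 library (0.13) and on the rescaled values. The EmptyBAL call was lost on those values too. Aralar rose by 1.62 (SE 0.18, adjusted p = 0.00031) in NoBAL, by 1.0 (SE 0.18, adjusted p = 0.0028) in EmptyBAL and by 1.07 (SE 0.18, adjusted p = 0.0037) in hiHepD8, each against Control. It made up 3.46% to 4.79% of both forms in Control, with NoBAL at 15% and 9.25%, EmptyBAL at 43.6% and 25%, hiHepD4 at 7.58% and hiHepD8 at 31.9% and 29.1%. Their summed level was 28.2 to 29.1 FPKM in Control and 11.9 and 11.7 in hiHepD8, so the higher share of aralar came with a lower total.

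SLC25A22, a glutamate carrier, stood at 59.1, 62.7 and 57.8 FPKM in Control, with NoBAL at 127 and 121, EmptyBAL at 28.4 and 37.5, hiHepD4 at 64.8 and hiHepD8 at 58.4 and 57.5. It was above Control in NoBAL, below it in EmptyBAL and level with it in hiHepD8. It rose by 1.04 (SE 0.17, adjusted p = 0.002) in NoBAL and fell by 1.89 (SE 0.19, adjusted p = 0.0016) in EmptyBAL against NoBAL. Its change of -0.85 (SE 0.17, adjusted p = 0.0045) in EmptyBAL against Control was a call lost on the rescaled values. The difference of hiHepD8 from Control was -0.04 (SE 0.17, adjusted p = 0.87).

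SLC25A15 and SLC25A29, carriers of basic amino acids, were highest on day 8, though neither was called against Control then. SLC25A15 takes up ornithine and returns citrulline, which links the matrix and cytosolic steps of the urea cycle. It was at 58.3, 59.9 and 56.4 FPKM in Control, with NoBAL at 16.0 and 50.4, EmptyBAL at 2.56 and 24.8, hiHepD4 at 67.1 and hiHepD8 at 108 and 110. The hiHepD8 libraries were above all others, and the NoBAL and EmptyBAL libraries were below Control but far apart from each other. SLC25A15 rose by 3.52 (SE 0.85, adjusted p = 0.014) in hiHepD8 against EmptyBAL, or 2.09 without EmptyBAL replicate 1, a call lost without either hiHepD8 library (adjusted p 0.066 and 0.069). Its change of 0.89 (SE 0.77) in hiHepD8 against Control was not called (adjusted p = 0.42), nor was that of -1.0 in NoBAL (adjusted p = 0.31). With only Control and hiHepD8 in the fit, which leaves out the widely spaced NoBAL and EmptyBAL libraries, the change of 0.89 was called (adjusted p = 5.2e-06), as it was with array weights (0.00056). The change of -2.63 in EmptyBAL (adjusted p = 0.022) was lost without any 1 Control library (0.054 to 0.057), without EmptyBAL replicate 1 (0.096) and on the rescaled values.

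SLC25A29, which carries arginine, lysine and ornithine, was likewise highest in hiHepD8, with less scatter between libraries. Its level was 41.5, 47 and 43.8 FPKM in Control, with NoBAL at 25.3 and 9.20, EmptyBAL at 17.8 and 17.1, hiHepD4 at 30.1 and hiHepD8 at 71.4 and 72.5. It rose by 2.15 (SE 0.38, adjusted p = 0.0029) against NoBAL and by 1.98 (SE 0.38, adjusted p = 0.0053) against EmptyBAL in hiHepD8. Against Control it fell by 1.46 (SE 0.35, adjusted p = 0.01) in NoBAL (-0.78 without NoBAL replicate 2), and fell by 1.29 (SE 0.35, adjusted p = 0.016) in EmptyBAL, a call lost on the rescaled values. Although both hiHepD8 libraries exceeded all Control libraries, the difference of 0.69 was not called (adjusted p = 0.17). It was called with only these 2 groups in the fit (adjusted p = 8.9e-05), without either NoBAL library (0.005 and 0.0051) and on the rescaled values (0.01).

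SLC25A38, which takes glycine into mitochondria for haem synthesis, was at 5.93, 9.03 and 6.79 FPKM in Control, with NoBAL at 9.62 and 7.57, EmptyBAL at 9.66 and 9.45, hiHepD4 at 14.3 and hiHepD8 at 19.3 and 19.6. The hiHepD8 libraries were above all others, and SLC25A38 rose by 1.33 (SE 0.19, adjusted p = 0.0016) in hiHepD8 against Control. SLC25A44, a branched-chain amino acid carrier, ranged from 3.74 to 10.6 FPKM and was called only in EmptyBAL against NoBAL (-0.82, adjusted p = 0.033). That call was lost without any 1 Control, NoBAL or hiHepD8 library (adjusted p 0.059 to 0.11) and on the rescaled values.

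SLC25A20 exchanges acylcarnitine for carnitine and so feeds fatty acid oxidation. It was at 42.4, 44.3 and 44.0 FPKM in Control, with NoBAL at 32.6 and 43.1, EmptyBAL at 8.92 and 34.0, hiHepD4 at 43.0 and hiHepD8 at 13.7 and 12.4. The hiHepD8 libraries lay below all Control and NoBAL libraries, while EmptyBAL spanned from below hiHepD8 to NoBAL. The change in hiHepD8 against Control was -1.67 (SE 0.45, adjusted p = 0.026). That call was lost without any 1 Control library (0.069 to 0.073), without either hiHepD8 library (0.12 and 0.14) and on the rescaled values.

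SLC25A47 gave the largest change of the family in the 6 comparisons. It is a carrier known from liver, and its substrate is debated. Its gene lies on chromosome 7 at 121204213 to 121210376 (Sscrofa11.1), and SLC25A29 is its neighbour at a distance of 11844 bp. SLC25A47 stood at 862, 916 and 866 FPKM in Control, with NoBAL at 775 and 326, EmptyBAL at 16.5 and 84.7, hiHepD4 at 1279 and hiHepD8 at 11 and 8.90. It was thus the most abundant member in Control and in hiHepD4, and its lowest values were those of hiHepD8. It fell by 6.34 (SE 0.63, adjusted p = 0.00033) in hiHepD8 and by 4.51 (SE 0.63, adjusted p = 0.00077) in EmptyBAL against Control (-3.36 without EmptyBAL replicate 1). Against NoBAL it fell by 5.53 (SE 0.69, adjusted p = 0.00062) in hiHepD8 and by 3.70 (SE 0.69, adjusted p = 0.0086) in EmptyBAL.

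In NoBAL against Control the change of SLC25A47 was not called (-0.81, SE 0.63, adjusted p = 0.32). The fit took 1 spread from all groups, and both the NoBAL and the EmptyBAL pair lay far apart. The single hiHepD4 library was 6.87 higher than the hiHepD8 mean on the log2 scale, with no replicate to test it. Of the 10 hepatocyte markers, 1 was called higher and 3 lower in hiHepD8 against Control (median log2 change -1.28), beside 15.1% and 17.1% of all genes. In EmptyBAL all 10 markers were lower (median -3.95), beside 29.3% of all genes. Their part in the change of SLC25A47 was not tested. Its neighbour SLC25A29 was at its highest in the same hiHepD8 libraries.

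**Figure D4:**
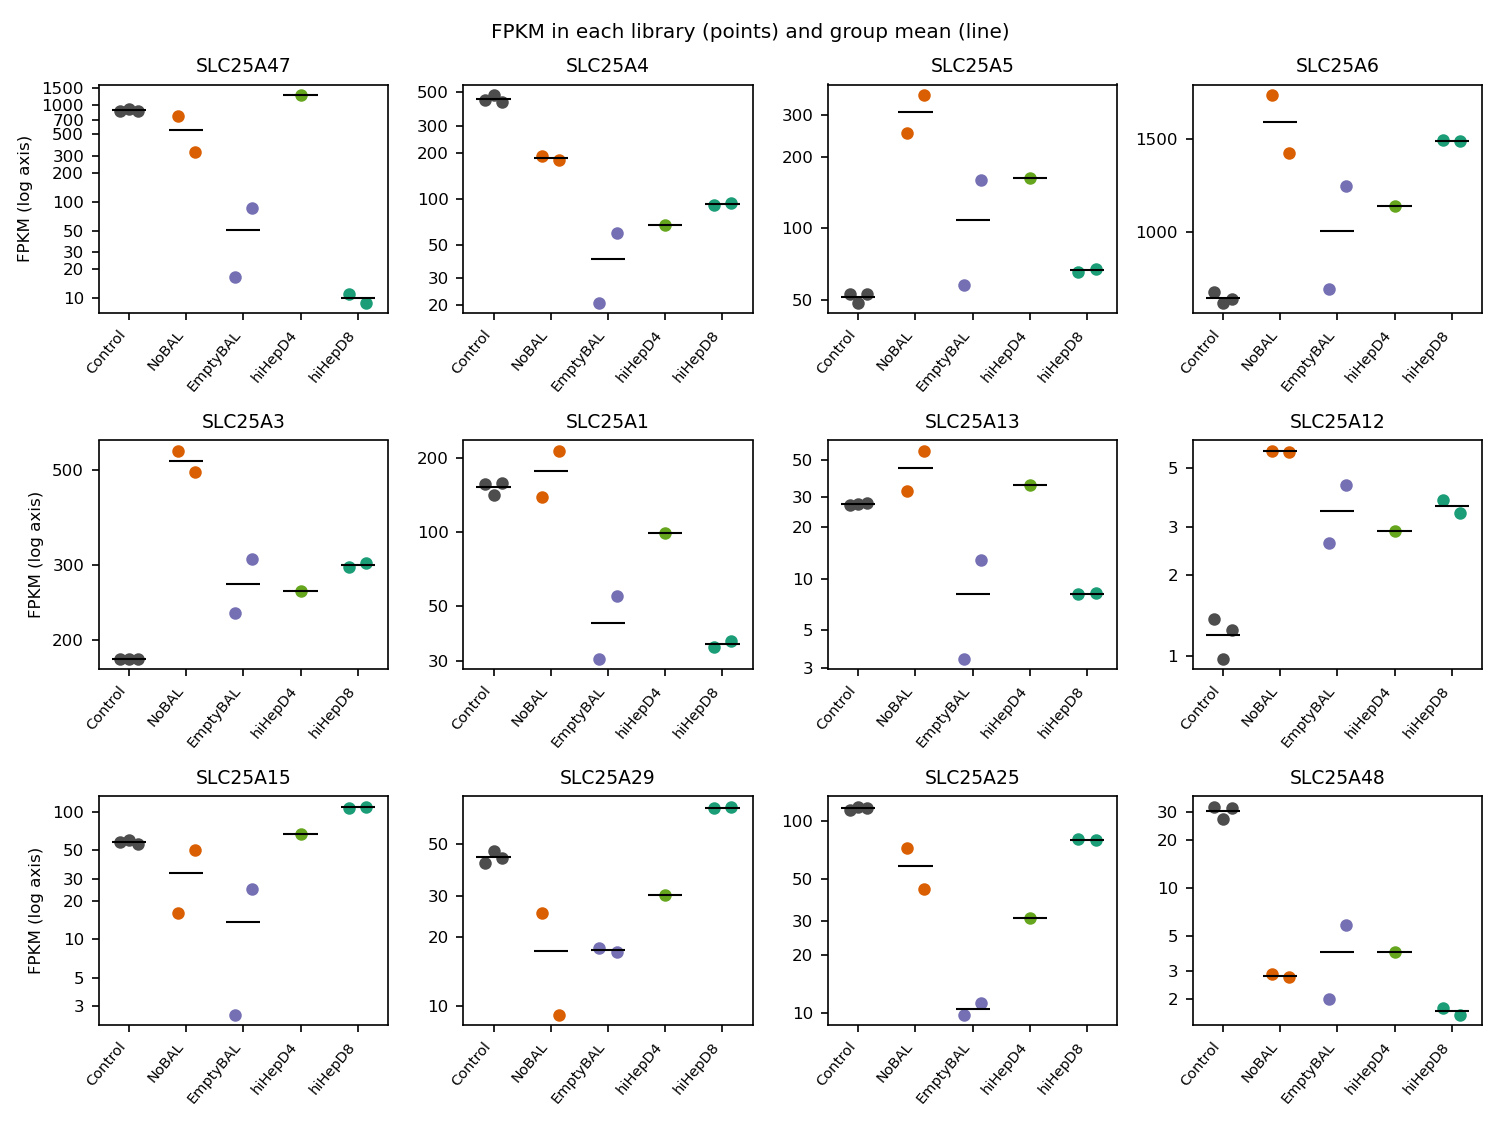
FPKM of 12 carriers in each library (points) with group means (lines), on log axes. SLC25A47 spans 8.90 to 1279 FPKM, SLC25A15 and SLC25A29 are highest in hiHepD8, and SLC25A1 and SLC25A13 are low in EmptyBAL and hiHepD8.

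Among the other cofactor and nucleotide carriers, SLC25A51, which brings NAD+ into mitochondria, was low in failure and high on day 8. It was at 6.23, 6.17 and 6.98 FPKM in Control, with NoBAL at 2.56 and 3.42, EmptyBAL at 4.48 and 3.26, hiHepD4 at 2.06 and both hiHepD8 libraries at 11.7. It fell by 0.91 (SE 0.17, adjusted p = 0.003) in NoBAL against Control, a call lost on the rescaled values, and rose by 1.68 (SE 0.18, adjusted p = 0.00034) in hiHepD8 against NoBAL. SLC25A36, a pyrimidine nucleotide carrier, was at 1.85, 2.45 and 2.10 FPKM in Control, with NoBAL at 1.45 and 1.61, EmptyBAL at 6.37 and 3.26, hiHepD4 at 1.39 and hiHepD8 at 5.22 and 5.35. It was high in both EmptyBAL and hiHepD8. Against NoBAL it rose by 1.15 (SE 0.25, adjusted p = 0.013) in EmptyBAL and by 1.31 (SE 0.25, adjusted p = 0.0038) in hiHepD8. Against Control its changes were 0.84 (adjusted p = 0.015) in EmptyBAL, lost without Control replicate 1 (0.052), and 1.01 (adjusted p = 0.012) in hiHepD8, lost without either hiHepD8 library (0.077 and 0.083). The difference between hiHepD8 and EmptyBAL was 0.17 (SE 0.25, adjusted p = 0.62), or 0.56 and called without EmptyBAL replicate 1 (0.025).

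SLC25A42, the coenzyme A carrier, was at 10.6, 11 and 8.57 FPKM in Control, with NoBAL at 11 and 8.62, EmptyBAL at 1.73 and 8.15, hiHepD4 at 14.6 and hiHepD8 at 14.2 and 14.8. Its change of 1.63 in hiHepD8 against EmptyBAL (SE 0.48, adjusted p = 0.029) was 0.76 without EmptyBAL replicate 1 and 2.51 without replicate 2, and was lost without either hiHepD8 library (0.11 and 0.12), without Control replicate 1 or 2 (0.05) and on the rescaled values. SLC25A16, whose substrate is linked to coenzyme A, ranged from 1.56 to 13.1 FPKM. Among the comparisons with Control it was called only in EmptyBAL, lower (-0.97, adjusted p = 0.022). This was lost without EmptyBAL replicate 1 (0.12) or Control replicate 2 or 3 (0.065 and 0.061), and on the rescaled values. SLC25A17, the carrier of peroxisomes (15.2 to 56.9 FPKM), SLC25A26, which carries S-adenosylmethionine (3.82 to 7.06 FPKM), and SLC25A33, a pyrimidine nucleotide carrier (3.28 to 27.6 FPKM), were called in no comparison with Control.

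The mitoferrins bring iron into mitochondria, and their 2 forms diverged. SLC25A28, the widely made form, was at 27.3, 30.4 and 24.3 FPKM in Control, with NoBAL at 65.7 and 51.4, EmptyBAL at 52.3 and 41.9, hiHepD4 at 27.3 and hiHepD8 at 31.1 and 28.8. SLC25A37, the form best known from red cell precursors, was at 18.9, 21.4 and 16.3 in Control, with NoBAL at 11.8 and 8.06, EmptyBAL at 9.54 and 4.20, hiHepD4 at 7.19 and hiHepD8 at 4.15 and 4.98. One form was above Control in failing liver and near it on day 8, and the other was below Control in every later library.

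SLC25A28 rose by 1.07 (SE 0.19, adjusted p = 0.0027) in NoBAL and by 0.76 (SE 0.19, adjusted p = 0.012) in EmptyBAL. SLC25A37 fell by 1.83 (SE 0.31, adjusted p = 0.0034) in hiHepD8 and by 1.42 (SE 0.31, adjusted p = 0.0061) in EmptyBAL against Control (-0.91 without EmptyBAL replicate 2). Its change in NoBAL, -0.87 (adjusted p = 0.046), was lost without any 1 Control, NoBAL or hiHepD8 library (0.056 to 0.23) and on the rescaled values. The summed level of 5 red cell genes was 156 to 182 FPKM in Control, with NoBAL at 183 and 27.3, EmptyBAL at 155 and 4.49, hiHepD4 at 298 and hiHepD8 at 113 and 105. Of these 5 genes, SLC4A1 and AHSP were under 1 FPKM in every library. HBB ranged from 4.49 to 289 FPKM, HBM from 0 to 5.21 and ALAS2 from 0 to 2.3. The part of red cell RNA in these values was not tested.

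SLC25A39 and SLC25A40 supply glutathione to the matrix. SLC25A39 was at 139, 151 and 138 FPKM in Control, with NoBAL at 378 and 249, EmptyBAL at 114 and 124, hiHepD4 at 221 and hiHepD8 at 89.2 and 89.4. It rose by 1.10 (SE 0.22, adjusted p = 0.0043) in NoBAL against Control and fell by 1.77 (SE 0.24, adjusted p = 0.00084) in hiHepD8 against NoBAL. SLC25A40 was instead lowest in NoBAL, at 2.95, 3.05 and 2.95 FPKM in Control, with NoBAL at 2.13 and 1.79, EmptyBAL at 2.50 and 3.12, hiHepD4 at 5.64 and hiHepD8 at 6.05 and 6.19. It rose by 1.27 (SE 0.15, adjusted p = 0.00042) in hiHepD8 against NoBAL and by 0.84 (SE 0.13, adjusted p = 0.0026) against Control.

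The remaining carriers have less settled substrates. SLC25A48, which has been linked to choline, was at 32.1, 27.0 and 31.8 FPKM in Control, with NoBAL at 2.86 and 2.73, EmptyBAL at 2.01 and 5.83, hiHepD4 at 3.95 and hiHepD8 at 1.75 and 1.59. All 7 libraries after hepatectomy were under 6 FPKM, with no return by day 8. It fell by 3.04 (SE 0.31, adjusted p = 0.00018) in NoBAL, by 2.78 (SE 0.31, adjusted p = 0.00025) in EmptyBAL and by 3.55 (SE 0.31, adjusted p = 0.00018) in hiHepD8. SLC25A35 was highest in hiHepD8, at 6.14 and 5.71 FPKM. Control was at 0.679, 0.152 and 0.418, NoBAL at 0.863 and 0.756, EmptyBAL at 3.12 and 2.13, and hiHepD4 at 0.868. SLC25A35 rose by 1.36 (SE 0.19, adjusted p = 0.00079) in EmptyBAL and by 2.31 (SE 0.19, adjusted p = 0.00014) in hiHepD8 against Control. Its change of 0.37 in NoBAL against Control was not called (adjusted p = 0.15).

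SLC25A27, which resembles the uncoupling proteins, was at 34.4, 37.7 and 35.2 FPKM in Control, with NoBAL at 12.3 and 19.3, EmptyBAL at 2.38 and 9.38, hiHepD4 at 19.1 and hiHepD8 at 33.9 and 34.1. It fell by 2.63 (SE 0.42, adjusted p = 0.0015) in EmptyBAL against Control and rose by 2.56 (SE 0.46, adjusted p = 0.0042) in hiHepD8 against EmptyBAL. In NoBAL the change of -1.16 was not called (adjusted p = 0.052), but it was without either EmptyBAL library (0.0014). The hiHepD8 and Control levels differed by -0.07 (adjusted p = 0.92). SLC25A14, another relative of the uncoupling proteins, lay between 0.153 and 1.26 FPKM. It was called only in EmptyBAL against NoBAL (0.70, adjusted p = 0.035), which was lost without any 1 Control library (0.057 to 0.061), NoBAL replicate 1 (0.13) or EmptyBAL replicate 1 (0.098). SLC25A45 stood out in the hiHepD4 library, at 9.41 FPKM against at most 3.60 in the 9 others, a single value without a replicate. SLC25A43 (2.07 to 4.40 FPKM) and SLC25A34 (0.543 in EmptyBAL replicate 1 and 4.54 to 10.3 elsewhere) were called in no comparison.

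On day 4 of the cell-filled device the single library was set beside each group mean, with a difference of 2-fold or more on log2(FPKM + 1) as the measure. Against Control 3 members were higher and 5 lower (8.19% and 11.2% of all genes), and against NoBAL 4 and 4 (7.6% and 7.56%). Against EmptyBAL 13 were higher and 3 lower (16.5% and 13.4%), and against hiHepD8 10 and 6 (12.3% and 11.1%). Its nearest group mean was Control for 13 of the 38 members, NoBAL for 12, EmptyBAL for 8 and hiHepD8 for 5, beside 26.6%, 30.7%, 19.5% and 23.2% of all tested genes. The 3 members higher than Control were SLC25A5 (1.64), SLC25A33 (1.42) and SLC25A45 (1.97 on the log2 scale). Those lower than Control were SLC25A4, SLC25A25, SLC25A37, SLC25A48 and SLC25A51, each of them also lower than Control in both NoBAL libraries.

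Counts of pathway genes follow, some of them for fits with 1 library left out. In each such fit the share of all tested genes called moved the same way as the count. In NoBAL against Control that share was 49.4%, and 38.0% to 38.5% without any 1 Control library. In EmptyBAL against Control it was 53.7%, and 42.5% to 43.1%. Such moves are therefore not particular to a pathway. Most tested genes of the import path of carriers, from the outer membrane translocase to TIM22, were high in NoBAL. Of 13 tested genes of this path, 10 rose and 0 fell in NoBAL against Control (median log2 change 1.13), beside 25.2% of all genes higher and 24.2% lower. TOMM40, the channel of the outer membrane, was at 45.6, 46.6 and 43.7 FPKM in Control, with NoBAL at 345 and 244, EmptyBAL at 70.3 and 119, hiHepD4 at 83.5 and hiHepD8 at 63.1 and 65.6. It rose by 2.65 (SE 0.26, adjusted p = 0.00016). The chaperones TIMM10 and TIMM8A rose by 1.70 (SE 0.34, adjusted p = 0.0046) and 1.59 (SE 0.29, adjusted p = 0.0031). In hiHepD8 against NoBAL 12 of the 13 fell (median -1.10), beside 24.8% of all genes, or 5 and 6 without hiHepD8 replicate 1 or 2. In hiHepD8 against Control limma called 0 (median 0.14, 1 at an unadjusted p under 0.05), while 1 rose and 2 fell without either EmptyBAL library.

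Of 8 tested ATP synthase subunits, which use the nucleotide and phosphate that the carriers move, 5 rose and 0 fell in NoBAL against Control (median 1.14), beside 25.2% and 24.2% of all genes. ATP5MC1 was 54.3 to 72.3 FPKM in Control and 982 and 232 in NoBAL and rose by 2.96 (SE 0.52, adjusted p = 0.0025). ATP5MC3 rose by 1.83 (SE 0.22, adjusted p = 0.00043) and ATP5F1A by 1.38 (SE 0.31, adjusted p = 0.0079), the last of these not without NoBAL replicate 2 (0.053). The count of 5 was 3 without any 1 Control library or NoBAL replicate 1, and 8 without either EmptyBAL library. In hiHepD8 against NoBAL 6 of the 8 fell (24.8% of all genes did), or 1 without either hiHepD8 library and 3 without Control replicate 1 or 3. Against Control limma called 0 in hiHepD8 (0 at an unadjusted p under 0.05), and 1 was called without any 1 NoBAL or EmptyBAL library.

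Urea cycle enzymes work on either side of the ornithine carrier. Of 6 genes, 3 fell in NoBAL and 5 in EmptyBAL against Control, and 0 rose, beside 24.2% and 29.3% of all genes lower. ARG1, which releases the ornithine, was called in neither, at 424 to 435 FPKM in Control, with NoBAL at 1372 and 2692 and EmptyBAL at 16.4 and 680 (adjusted p = 0.19 and 0.22); it was chosen after its values were seen. OTC, which joins ornithine to carbamoyl phosphate in the matrix, was 328 to 334 FPKM in Control, with NoBAL at 10.8 and 6.74, EmptyBAL at 5.41 and 9.68, hiHepD4 at 60.9 and hiHepD8 at 118 and 121. It fell by 5.12 (SE 0.26, adjusted p = 1e-05) in NoBAL, where ASS1 fell by 3.90 (SE 0.49, adjusted p = 0.00053) and ASL by 1.18 (SE 0.36, adjusted p = 0.027). The call of ASL was lost without any 1 Control library (0.069 to 0.074) or NoBAL replicate 2 (0.13) and on the rescaled values, and without either EmptyBAL library 5 of the 6 fell in NoBAL and 1 rose. In hiHepD8 4 of the 6 rose against EmptyBAL and 3 against NoBAL (22.6% and 22.5% of all genes did), the latter 5 without either EmptyBAL library. Against Control on day 8, OTC fell by 1.47 (adjusted p = 0.0046). ASL was 1.13 higher there (adjusted p = 0.046), a call lost without any 1 Control (0.11 and 0.12), NoBAL (0.051) or hiHepD8 library (0.19). Without either EmptyBAL library 3 rose and 2 fell.

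Of the 4 enzymes of the malate-aspartate shuttle, MDH1 rose by 2.65 (SE 0.50, adjusted p = 0.0035) and GOT1 fell by 1.33 (SE 0.47, adjusted p = 0.046) in NoBAL against Control. The call of GOT1 was lost without any 1 Control, NoBAL or hiHepD8 library (0.073 to 0.15) and on the rescaled values. In EmptyBAL 3 of the 4 fell and 0 rose (29.3% and 24.4% of all genes did), or 1 fell without any 1 Control library. In hiHepD8 against Control limma called 0 (0 at an unadjusted p under 0.05), while 1 rose and 1 fell without either EmptyBAL library. Among 14 tested mitochondrial transporters outside the family, 6 rose and 1 fell in NoBAL against Control (25.2% and 24.2% of all genes did), led by SFXN4 (2.23, SE 0.23, adjusted p = 0.00022), the outer membrane channel VDAC2 (1.95, SE 0.38, adjusted p = 0.0038) and SFXN5 (-1.90, SE 0.23, adjusted p = 0.00042). In hiHepD8 against NoBAL 2 rose and 10 fell, beside 22.5% and 24.8% of all genes.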

How the data were processed

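Bulk RNA was measured in 10 pig liver libraries, from Trizol total RNA read in pairs, per the labels' protocols. The authors deposited 1 value per gene and library. The deposited table does not write its unit, which was taken as FPKM because the notes name Cufflinks and a header follows its style. Per the submitters' processing notes, HISAT2, Cufflinks and HTSeq were used and the builds Sscrofa11.1 and mm10 are named, with no roles given. Strandedness, the treatment of reads shared by paralogs and read depth are not given in the sources used here. No counting interval could be had. FPKM summed to 439925 to 829970 per library.

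The 12180 genes that reached 1 FPKM in 2 or more libraries were compared on log2(FPKM + 1) with limma 3.58.1 in R 4.3.3, with a mean-variance trend and all 5 groups in 1 fit (5 residual and 2.7 prior degrees of freedom). The pseudocount understates changes of low genes. P-values were two-sided and adjusted over all tested genes. hiHepD4 had 1 library and no test. The code was tested on simulated data. Symbols came from the table (16497 rows) or by gene ID from the reference (851 more). Coordinates are those of Sscrofa11.1.

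Members named with every value were up to 5 called rises and 5 falls per comparison, without overlap and with a mean of at least 5 FPKM, plus a fixed set. From each pathway list up to 3 genes with the largest called change in NoBAL were named. Of 146 genes on the pathway and marker lists 125 were found. Members and lists were chosen with earlier results of these data known. Alternatives covered pseudocount, filter, scaling, weights, trend, groups in the fit, averaged libraries, libraries left out and a replicate block. Those for pathway genes and for uncalled members were chosen after seeing the data. The values of 1 tested member and of 1 marker list are not reported here.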

Additional observations from a re-analysis of the deposited data

How the results depend on the processing

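The counts of called members moved by more than 1.5 times in these settings. With Control and hiHepD8 averaged into 1 library each, limma called 0 in NoBAL, 1 in EmptyBAL and 0 in hiHepD8 against Control, and 0 in each of the other 3 comparisons. At an unadjusted p under 0.05 these counts were 4, 8, 7 and 15, 14, 8, and 413, 689, 17, 0, 297 and 33 of all genes were called. Array weights gave 14 in EmptyBAL against Control and 7 in EmptyBAL against NoBAL, beside 30.3% and 2.66% of all genes. With only the 2 groups compared, 0 were called in EmptyBAL against NoBAL (15 at an unadjusted p under 0.05) and 7 in hiHepD8 against EmptyBAL. Of all genes 0 and 19.3% were called there. With 1 library left out in turn, the count was 15 to 31 in hiHepD8 against NoBAL, 7 to 25 in hiHepD8 against EmptyBAL and 9 to 23 in hiHepD8 against Control. The share of all genes called broadly moved with these counts. A group left with 1 library was taken to vary like the others. With the replicate block, 5 members were called in NoBAL and 13 in EmptyBAL against Control, and 4 in EmptyBAL against NoBAL. Of all genes 24.7%, 30.7% and 3.34% were called with it. Between libraries of equal replicate number, deviations from the group means correlated at -0.05 to 0.14. In a group of 2 libraries the deviations mirror each other, so this cannot settle whether the numbers pair the samples. The alternatives not named here kept the counts within 1.5 times.

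No called change of a member turned in sign. Some changes not called came to lie on opposite sides of 0 without EmptyBAL replicate 1 or 2. In EmptyBAL against Control, SLC25A33 came to 0.79 or -1.33 and SLC25A34 to 0.43 or -2.44, and in EmptyBAL against NoBAL SLC25A34 came to 0.58 or -2.29. In hiHepD8 against EmptyBAL, SLC25A34 came to -0.59 or 2.28, SLC25A23 to 0.91 or -0.70 and SLC25A33 to -1.19 or 0.93. In each case the cause was not tested. Depth is unknown, so what it limits cannot be stated.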

Other observations

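Genes of 3 more carriers stood in the table without a symbol and were named through their gene ID in the reference. They lie outside the 42 rows chosen by symbol. SLC25A10, the dicarboxylate carrier, was at 98.9, 105 and 100 FPKM in Control, with NoBAL at 91.4 and 52.6, EmptyBAL at 30.6 and 39.5, hiHepD4 at 63.4 and hiHepD8 at 57.1 and 59.1. All 7 libraries after hepatectomy were below Control. In limma's test SLC25A10 fell by 1.52 (adjusted p = 0.0016) in EmptyBAL and by 0.80 (adjusted p = 0.043) in hiHepD8 against Control. SLC25A32, which carries folate or flavin, was 3.14 to 3.26 FPKM in Control and 0.642 and 1.03 in EmptyBAL, where it fell by 1.20 (adjusted p = 0.00029). SLC25A46, a protein of the outer membrane, was 3.38 to 4.05 FPKM in Control and 1.51 and 1.67 in EmptyBAL. It fell there by 0.86 (adjusted p = 0.0067), and its change in hiHepD8 against Control was 0.22 (adjusted p = 0.42).

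Markers of other cells also differed between groups, and within a list they did not all move one way. Of all tested genes, 24.4% were called higher and 29.3% lower in EmptyBAL against Control. These shares were 25.2% and 24.2% in NoBAL, and 15.1% and 17.1% in hiHepD8. Against Control, 6 of 10 macrophage genes were called higher and 1 lower in EmptyBAL (median log2 change 1.74), and 0 higher and 5 lower in NoBAL (median -0.40). Their sum, 1101 to 1206 FPKM in Control and 860 and 1248 in EmptyBAL, was mostly CD14 in Control (680 to 752 FPKM), which was 90.8 and 167 in EmptyBAL. Of 6 tested T and NK cell genes, 2 were higher and 1 lower in EmptyBAL, and 0 higher and 5 lower in NoBAL. Of 7 endothelial genes, 2 were higher and 1 lower in EmptyBAL, and 2 higher and 1 lower in hiHepD8 (medians 0.50 and 0.91). For lists this short, the T and NK cell and endothelial counts in EmptyBAL lay near the shares of all genes. CLEC4G made up most of their sum in Control (203 to 233 FPKM) and was 2.29 to 97.4 in all other libraries, while VWF was 1.31 to 1.62 FPKM in Control and 17.5 and 17.8 in hiHepD8. Of 6 cholangiocyte genes, 4 were higher and 1 lower in EmptyBAL (median 1.51). Of 8 stellate cell genes, 3 were higher and 0 lower in both NoBAL and EmptyBAL (medians 0.22 and 0.89), and 4 higher and 1 lower in hiHepD8 (median 0.95). CD14, CLEC4G and VWF were chosen after their values were seen. The part of these cells in the carrier results was not tested.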
